A study of Mus musculus with 6 samples.

Results

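The genes described here encode the drug and organic anion transporters of mouse liver. The set held every gene whose symbol starts with Slco, Slc22a, Abcb, Abcc or Abcg, apart from the bile salt pump Abcb11 and the sterol transporter pair Abcg5 and Abcg8. These prefixes matched 52 symbols, so 49 of the 15960 genes in the deposited expression table were members. The rule reads symbols and no expression values. Livers of Cyp2e1-/- mice (knockout, n = 3) were compared with livers of Cyp2e1+/+ mice (wild type, n = 3). Both genotypes are labelled as C57BL/6, were 22 weeks old, and had eaten high-fat diet for 14 weeks, so the data hold no group on another diet. Cyp2e1 encodes a cytochrome P450 of the hepatocyte endoplasmic reticulum that oxidizes ethanol, acetone, fatty acids and several drugs. The labels do not give the sex of the mice, the construction of the allele, or whether a library came from 1 mouse, and p-values therefore measure only the spread between these libraries.

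Hepatocytes take drugs, hormones, bilirubin and bile acids from sinusoidal blood through organic anion transporting polypeptides, encoded by Slco genes, and through organic cation and anion transporters, encoded by Slc22a genes. After conjugation, ATP-driven pumps of the Abc families push the products across the canalicular membrane into bile, or back across the sinusoidal membrane into blood. Sinusoidal pumps such as Abcc3 and Abcc4 are known as a return route that is used more when export into bile is impaired. Several of these genes are known targets of the xenobiotic receptors CAR (Nr1i3) and PXR (Nr1i2), and Slco1a4 is among the responsive genes in mouse liver. Members were placed in roles by their textbook location in hepatocytes. The roles were sinusoidal uptake with 9 members, sinusoidal export with 5, canalicular export with 5, mitochondrial and lysosomal ABC proteins with 5, and 25 remaining members.

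Expression was given as FPKM, a fragment count divided by the length of the transcript and the size of the library, which allows levels of different genes to be set side by side. Cyp2e1 itself matched the labels in all 6 libraries, at 253.95, 247.45 and 270.71 FPKM in the knockout and at 7427.49, 5942.28 and 6071.42 FPKM in the wild type (log2 difference -4.64, SE 0.13, adjusted p = 6.7e-08 by limma). Judged by the steps between low values, 1 FPKM over 1 kilobase stood for 9.54 to 10.08 fragments in 5 libraries and 12.32 in knockout replicate 1. In that library the 10 most abundant genes held 37.7% of the summed FPKM, against 32.5% to 33.5% in the other 5. The hepatocyte markers were high in both genotypes, with albumin (Alb) at 30269 ± 3205 FPKM in the knockout and 26283 ± 2215 FPKM in the wild type (SD over 3 libraries per group, as for all group means given here). The set's own hepatocyte markers Slco1b2, Slco1a1 and Abcc2 were all detected. Only 2 of 8 kidney markers were in the table, and their sum was at most 0.11 FPKM in any library, a measurement that bears on the Slc22a genes known from kidney tubules.

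Of the 49 members, 26 had 1 FPKM or more in 3 or more libraries and were tested together with all other genes that did so. None of the 26 passed an adjusted p of 0.05 by limma, while 76 of 9968 genes (0.762%) did, 47 of them higher and 29 lower in the knockout. At an unadjusted p under 0.05 limma called 2 members, Slco1a4 and Slco2b1, or 7.69% of those tested, beside 9.93% of all genes. Of the tested members 13 had a positive and 13 a negative log2 difference, where positive means higher in the knockout. Their median difference was 0.0049, beside -0.028 over all genes tested. For 3 members (11.5%), Slco1a4, Slco2b1 and Slc22a7, no library of a genotype lay within the range of the other, beside 15.4% of all genes tested. With 26 members tested, these shares rest on few genes and come from the same libraries. They are not read as a difference from all genes.

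**Figure D1:**
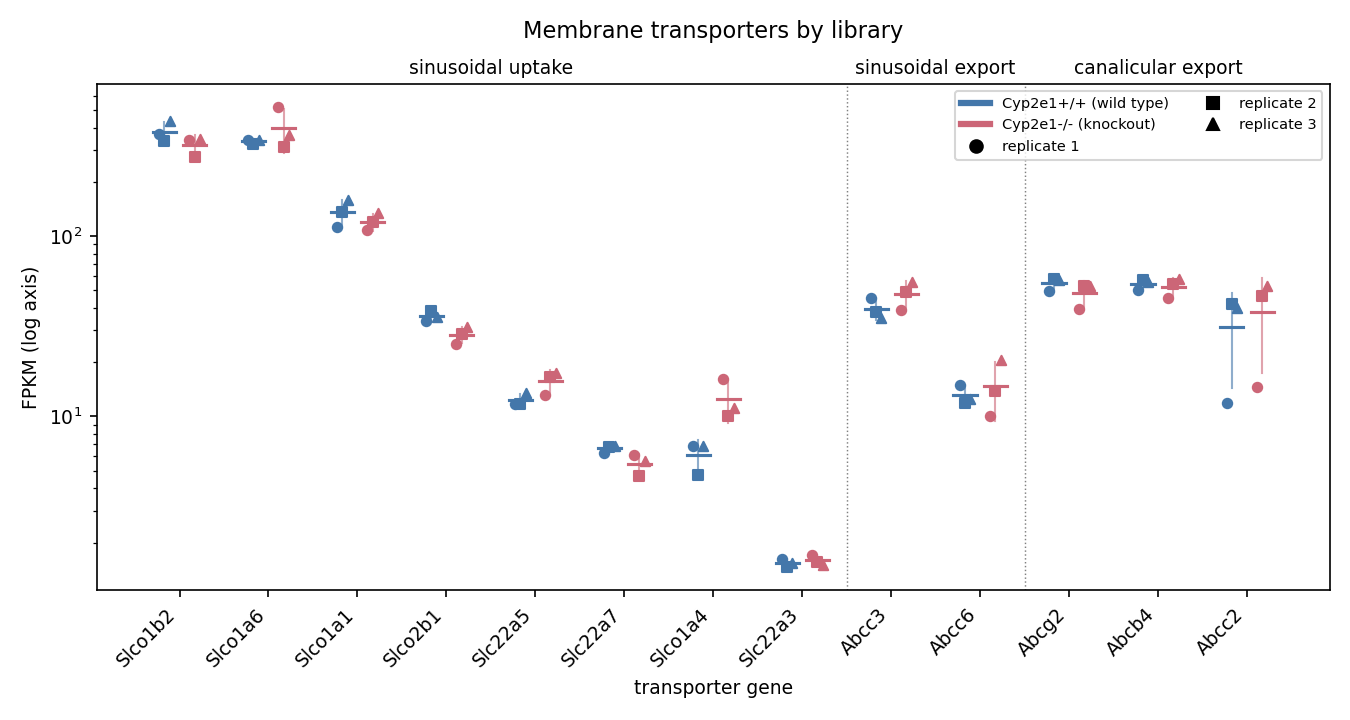
FPKM on a log axis of 13 tested members with a membrane role, with wild type in blue, knockout in red, a symbol for each replicate number, horizontal bars for group means and vertical lines for the SD (n = 3). Levels ran from 1.46 FPKM for Slc22a3 to 519.89 FPKM for Slco1a6 in knockout replicate 1, and Slco1a4, Slco2b1 and Slc22a7 were the genes whose genotypes did not overlap.

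Sinusoidal uptake was the most abundant role. Its 9 members, all of them tested, summed to 1034.6 ± 132 FPKM in the knockout and 1037.7 ± 68.9 FPKM in the wild type. None passed the adjusted threshold, 5 had positive and 4 negative differences, and their median was 0.028. Most of the sum came from a single gene cluster on chromosome 6, in the order Slco1b2, Slco1a4, Slco1a1 and Slco1a6, whose levels ranged from 4.72 to 519.89 FPKM. The 250 bases before the RefSeq start site of these 4 genes (GRCm38.p6) are shown because these neighbours differed so widely in level and because Slco1a4 lay apart from the others in the comparison of genotypes. Capitals mark matches, on either strand, to GTTAAT (part of the HNF1 site), AGGTCA (a nuclear receptor half-site), AGTTCA (a half-site bound by PXR and CAR), TTCNNNGAA (the STAT site) or TGACNNNGC (the core of the antioxidant response element).
Slco1b2: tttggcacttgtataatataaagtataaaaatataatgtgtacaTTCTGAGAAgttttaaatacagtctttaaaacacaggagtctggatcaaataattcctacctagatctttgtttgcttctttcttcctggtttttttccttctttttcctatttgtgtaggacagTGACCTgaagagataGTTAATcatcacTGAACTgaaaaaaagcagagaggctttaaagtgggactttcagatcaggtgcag
Slco1a4: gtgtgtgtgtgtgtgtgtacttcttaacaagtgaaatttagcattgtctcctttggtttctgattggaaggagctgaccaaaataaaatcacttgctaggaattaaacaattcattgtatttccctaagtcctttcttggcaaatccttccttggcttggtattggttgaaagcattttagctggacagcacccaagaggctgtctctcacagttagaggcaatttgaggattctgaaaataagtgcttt
Slco1a1: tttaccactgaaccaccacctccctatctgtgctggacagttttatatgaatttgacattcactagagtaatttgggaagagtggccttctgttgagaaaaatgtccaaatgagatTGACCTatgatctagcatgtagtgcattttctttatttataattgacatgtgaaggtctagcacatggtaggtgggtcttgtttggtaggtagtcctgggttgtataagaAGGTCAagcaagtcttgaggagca
Slco1a6: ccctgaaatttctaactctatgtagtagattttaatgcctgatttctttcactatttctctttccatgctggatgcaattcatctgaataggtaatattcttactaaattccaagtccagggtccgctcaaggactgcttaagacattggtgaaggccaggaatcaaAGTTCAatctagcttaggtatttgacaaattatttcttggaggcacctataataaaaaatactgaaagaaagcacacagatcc
The windows lie at chr6:141629268-141629517 on the plus strand for Slco1b2, and on the minus strand at chr6:141856221-141856470 for Slco1a4, chr6:141946963-141947212 for Slco1a1 and chr6:142186150-142186399 for Slco1a6. The windows of Slco1b2, Slco1a4 and Slco1a6 reach into the annotated gene, whose outer end lies farther upstream.

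The Slco1b2 window held 1 match each to the HNF1 pattern, the nuclear receptor half-site, the PXR and CAR half-site and the STAT site. The Slco1a1 window held 2 matches to AGGTCA, and the Slco1a6 window 1 match to AGTTCA. The Slco1a4 window held none of the 5 patterns, which says only that these letters are not in those 250 bases. Such matches are common. GTTAAT was in 6.43% of the 32851 windows in the table, AGGTCA in 14.02%, AGTTCA in 11.84%, TTCNNNGAA in 7.02% and TGACNNNGC in 10.16%. Windows were found for 38 of the 49 members, 46 windows in all, and the shares there were 4.35%, 21.74%, 15.22%, 10.87% and 15.22% in the same order. No tests were run on these shares, and a match is no evidence of binding.

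Slco1b2 (chromosome 6, 141629452 to 141686646), the liver-specific carrier of bile acids, bilirubin conjugates and statins, stood at 342.41, 274.03 and 347.96 FPKM in the knockout libraries. The wild type libraries had 366.53, 338.98 and 434.84 FPKM. The genotypes overlapped, with the highest value in wild type replicate 3 and the lowest in knockout replicate 2. Means were 321 ± 41.2 and 380.1 ± 49.4 FPKM, and the log2 difference was -0.24 (SE 0.14, 95% interval -0.56 to 0.081, adjusted p = 0.65 by limma).

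Slco1a1 (chromosome 6, 141907281 to 141946962), a carrier of steroid sulfates and other organic anions that is known for higher expression in male liver, had 107.78, 119.27 and 133.83 FPKM in the knockout. In the wild type it had 112.96, 135.41 and 157.97 FPKM. In both genotypes replicate 1 was the lowest, and the ranges overlapped widely. The log2 difference was -0.16 (SE 0.15, 95% interval -0.49 to 0.17, adjusted p = 0.795 by limma).

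Slco1a4 (chromosome 6, 141805438 to 141856284), which carries organic anions and digoxin and is known as a gene responsive to CAR and PXR activators, gave the largest difference among the members. It stood at 16.07, 10.06 and 11.19 FPKM in the knockout, against 6.90, 4.72 and 6.83 FPKM in the wild type. Every knockout value lay above every wild type value, with the highest in knockout replicate 1. Means were 12.4 ± 3.19 and 6.15 ± 1.24 FPKM, a ratio of 2.02. The log2 difference was 0.90 (SE 0.20, 95% interval 0.46 to 1.34), with an unadjusted p of 0.0011 and an adjusted p of 0.094 by limma, above the threshold. Leaving out any single library gave log2 differences of 0.72 to 1.03 and adjusted p-values by limma of 0.091 to 0.34. With the replicate number as a block the adjusted p by limma was 0.0506.

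Slco1a4 passed the adjusted threshold in 2 alternatives by limma, which called many more genes in general. With libraries weighted by their spread its log2 difference was 0.80 and its adjusted p by limma was 0.0076, in a fit that called 11.5% of all genes and 4 members (15.4%). Without replicate 1 of both genotypes its log2 difference was 0.79 and its adjusted p by limma was 0.018, in a fit that called 11.9% of all genes and 5 members (19.2%). Abcc3 and Slc22a5 were also called in both fits, Slco2b1 with the weights, and Slc22a30 without replicate 1. A measure that does not depend on library scaling, the ratio of Slco1a4 to its neighbour Slco1a1 within a library, was 0.149, 0.0843 and 0.0836 in the knockout and 0.0611, 0.0349 and 0.0432 in the wild type. The genotypes did not overlap, and the ratio was 2.25 times higher in the knockout. The exact permutation test (two-sided) gave p = 0.1, the smallest that 3 against 3 libraries allow (adjusted p = 0.4 over 4 ratios). This ratio reuses the Slco1a4 values above and is no separate evidence. The log2 difference of Slco1a1, -0.16, adds to it. As a share of summed uptake FPKM, Slco1a4 held 1.19 ± 0.169% in the knockout and 0.59 ± 0.094% in the wild type.

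Slco1a6 (chromosome 6, 142085761 to 142186177) was placed with the uptake genes by its family, since its location in hepatocytes is less well established. It had 519.89, 310.45 and 362.6 FPKM in the knockout and 343.19, 324.93 and 342.16 FPKM in the wild type. Knockout replicate 1 stood apart at the top, and the knockout SD of 109 FPKM was far above the wild type SD of 10.3 FPKM. The log2 difference of 0.21 (SE 0.18, adjusted p = 0.78 by limma) became -0.0049 without that library. Of its 2 transcripts 1 was named as new by the authors, so its level may include sequence outside the RefSeq gene. The same holds for Slco1a4 and Slco1b2, each with 2 new transcripts of 3, and for Slco2b1, with 1 of 4.

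Slco2b1 (chromosome 7, 99657804 to 99711340), a carrier of sulfated steroids and statins, was the other member whose unadjusted p was under 0.05. It stood at 25.35, 28.67 and 31.28 FPKM in the knockout, and at 33.75, 38.64 and 35.82 FPKM in the wild type. All 3 knockout values lay below all wild type values. Means were 28.4 ± 2.97 and 36.1 ± 2.45 FPKM. The log2 difference was -0.34 (SE 0.13, 95% interval -0.62 to -0.053), with an unadjusted p of 0.024 and an adjusted p of 0.39 by limma, and with library weights the adjusted p by limma was 0.038. In whole liver, fewer cells of a type and less RNA per cell cannot be told apart. None of 10 macrophage markers passed the test, 9 of them had negative differences, and their sums spanned 129.65 to 227.7 FPKM in the knockout and 214.8 to 235.4 FPKM in the wild type. None of 8 endothelial markers passed either, with 2 positive, 6 negative and a median of -0.29. Their sums spanned 64.4 to 87.8 FPKM in the knockout and 62.6 to 84.5 FPKM in the wild type. The most abundant of them, Clec4g, went up, with 35.8 ± 8.07 FPKM in the knockout and 28.4 ± 2.06 FPKM in the wild type. Whether macrophages or endothelial cells had a part in the Slco2b1 values was not tested.

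None of the Slc22a carriers of the uptake role passed the test. Slc22a5, the carnitine transporter needed for import of long-chain fatty acids into mitochondria, had 13.08, 16.66 and 17.43 FPKM in the knockout and 11.72, 11.72 and 13.51 FPKM in the wild type. Only knockout replicate 1 fell inside the wild type range. The log2 difference was 0.32 (SE 0.15, 95% interval -0.0023 to 0.65, unadjusted p = 0.051, adjusted p = 0.51 by limma). Of its 31-base words 35.8% were shared with the neighbouring family member Slc22a21, listed at no more than 0.29 FPKM in any library, so fragments from the pair may have been divided between them.

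Slc22a7, the carrier of orotate and other organic anions, had 6.09, 4.66 and 5.67 FPKM in the knockout and 6.31, 6.81 and 6.82 FPKM in the wild type. The genotypes did not overlap, by a narrow margin, with a log2 difference of -0.25 (SE 0.14, adjusted p = 0.63 by limma). Slc22a3, an organic cation transporter of low abundance in liver, had 1.71, 1.56 and 1.51 FPKM in the knockout and 1.63, 1.46 and 1.54 FPKM in the wild type, all within the same range (log2 difference 0.028, adjusted p = 0.98 by limma).

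**Figure D2:**
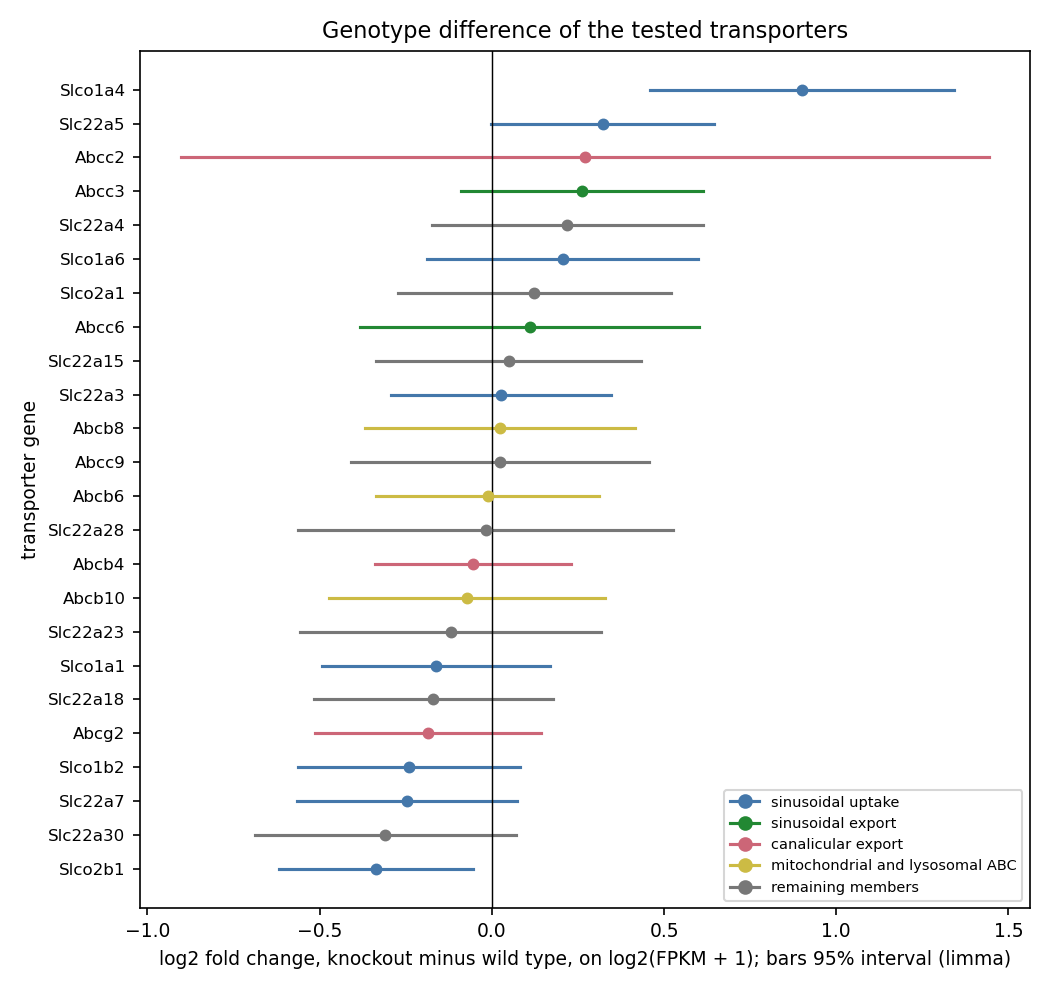
Log2 difference between genotypes (knockout minus wild type, of log2(FPKM + 1)) of 24 tested members, ordered by size and coloured by role, with points for the estimate and bars for the 95% interval by limma. Slco1a4 at 0.90 and Slco2b1 at -0.34 are the members whose intervals leave out 0, and Abcc2 has the widest interval, from -0.90 to 1.44.

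Sinusoidal export rested on 2 of its 5 members. Summed levels were 63.8 ± 14.0 FPKM in the knockout and 53.6 ± 6.52 FPKM in the wild type, and both tested members had positive differences, with a median of 0.19. That median was 0.0041 without knockout replicate 3 and 0.37 without knockout replicate 1. Abcc3, which returns bilirubin and drug glucuronides to blood, made up 75.6 ± 3.39% of the sum in the knockout and 73.8 ± 1.39% in the wild type. Its levels were 38.96, 49.07 and 55.76 FPKM in the knockout and 45.34, 38.14 and 35.33 FPKM in the wild type. Knockout replicates 2 and 3 were above all wild type libraries, while knockout replicate 1 lay inside their range. Of its 2 transcripts 1 was named as new. Means were 47.9 ± 8.46 and 39.6 ± 5.16 FPKM, with a log2 difference of 0.26 (SE 0.16, 95% interval -0.089 to 0.61, adjusted p = 0.65 by limma). Without replicate 1 of both genotypes the log2 difference was 0.50 (adjusted p = 0.011 by limma), and with library weights it was 0.40 (adjusted p = 0.032 by limma).

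Abcc6, which supports release of ATP from hepatocytes and through it the plasma level of pyrophosphate, had 10, 13.83 and 20.44 FPKM in the knockout and 14.94, 11.85 and 12.58 FPKM in the wild type. The knockout libraries reached both below and above the wild type ones, and the log2 difference was 0.11 (SE 0.22, adjusted p = 0.94 by limma). Of its 6 transcripts 5 were named as new by the authors. Abcc1, Abcc4 and Abcc5 were below the filter. Abcc4, a sinusoidal pump for cyclic nucleotides and bile acids, was at 0.15, 0.26 and 0.25 FPKM in the knockout and 0.25, 0.20 and 0.32 FPKM in the wild type, which overlapped. Abcc1 stayed at or under 0.32 FPKM, and Abcc5 ranged from 0.33 to 1.11 FPKM with overlapping genotypes.

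Canalicular export summed to 139.95 ± 34.3 FPKM in the knockout and 142 ± 25.3 FPKM in the wild type, with 3 of 5 members tested, 1 of them positive and 2 negative, and a median difference of -0.056. Leaving out wild type replicate 1 gave a median of -0.26, and leaving out knockout replicate 1 gave 0.040. Abcc2, the pump that exports bilirubin glucuronides and glutathione conjugates into bile, varied more between replicates than between genotypes. It had 14.57, 46.39 and 53.1 FPKM in the knockout and 11.82, 42.3 and 40.0 FPKM in the wild type. Both libraries numbered replicate 1 were low, and the other 4 lay between 40.0 and 53.1 FPKM. Means were 38.0 ± 20.6 and 31.4 ± 17.0 FPKM, and the log2 difference of 0.27 carried an SE of 0.53 (95% interval -0.90 to 1.44, adjusted p = 0.94 by limma). With the replicate number as a block the SE was 0.11 and limma's adjusted p was 0.38, and it was 0.10 when both replicate 1 libraries were left out. The share of Abcc2 in the canalicular sum was 14.5% and 10.5% in the replicate 1 libraries of knockout and wild type, and 25.8% to 32.3% in the other 4.

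The remaining canalicular pumps varied less. Abcb4, the floppase that brings phosphatidylcholine into bile, had 45.68, 54.37 and 57.52 FPKM in the knockout and 50.53, 56.99 and 55.85 FPKM in the wild type. Its ranges overlapped, and the log2 difference was -0.056 (SE 0.13, adjusted p = 0.95 by limma). Abcg2, an exporter of urate, sulfate conjugates and porphyrins, had 39.21, 53.17 and 52.83 FPKM in the knockout and 49.38, 57.6 and 57.49 FPKM in the wild type. Replicate 1 was lowest in each genotype, and the log2 difference was -0.19 (SE 0.15, adjusted p = 0.76 by limma). Of its 3 transcripts 2 were named as new by the authors. The drug pump genes Abcb1a and Abcb1b were below the filter, at no more than 0.62 and 1.19 FPKM in any library.

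**Figure D3:**
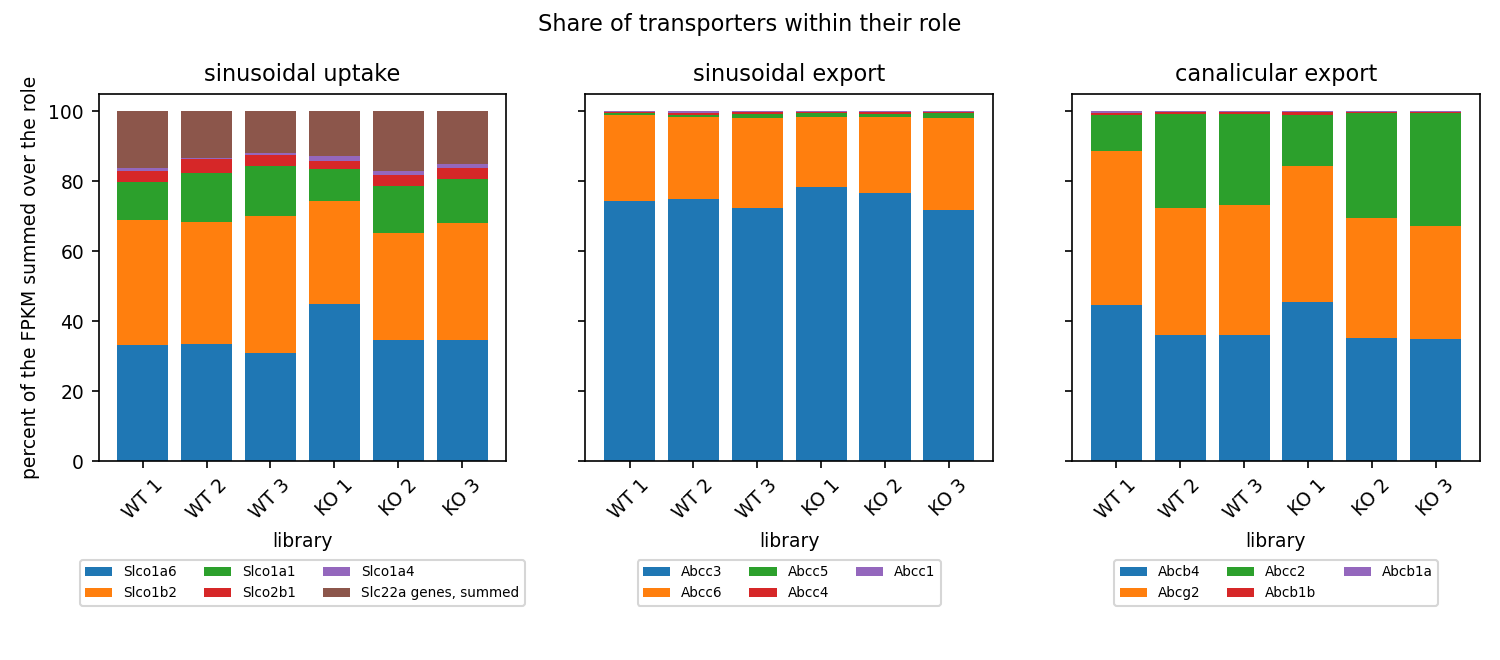
Share of members in the summed FPKM of their role, in percent, as 1 stacked bar per library for sinusoidal uptake, sinusoidal export and canalicular export, with the Slc22a genes of the uptake role drawn as 1 segment. Slco1a6 and Slco1b2 make up most of each uptake bar, Abcc3 most of each sinusoidal export bar, and the Abcc2 segment is narrow in both replicate 1 libraries at 14.5% and 10.5%.

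Slco1a6 held 38.0 ± 5.86% of the uptake sum in the knockout and 32.5 ± 1.44% in the wild type, and Slco1b2 31.1 ± 1.95% and 36.5 ± 2.34%. The larger mean share was that of Slco1a6 in the knockout and of Slco1b2 in the wild type. Both genes have transcripts named as new, so both levels may include sequence outside the RefSeq genes. Slco1a6 was placed in this role by its family only. Neither difference in level passed the test, and the Slco1a6 share was 44.8% in knockout replicate 1 and 34.6% and 34.7% in the other knockout libraries. The ratio of Slco1b2 to Slco1a1 differed by -0.079 on the log2 scale (p = 0.7, exact permutation test, adjusted p = 0.933 over 4 ratios). The ratio of Abcc3 to Abcc2 sets RNA of a sinusoidal pump against RNA of a canalicular pump and does not measure transport. It was 2.67, 1.06 and 1.05 in the knockout and 3.84, 0.902 and 0.883 in the wild type. This ratio was high in both replicate 1 libraries, and the genotypes differed by -0.014 on the log2 scale (p = 1.0, exact permutation test). The ratio of Abcc4 to Abcc2 differed by -0.52 on the log2 scale (p = 0.6, exact permutation test, adjusted p = 0.933 over 4 ratios), with Abcc4 too low for a firm value.

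Abcc2 was not alone in following the replicate number. Both replicate 1 values lay below the other 4 libraries for 9 of the 26 tested members (34.6%), beside 24.2% of all genes tested. These were Abcc2, Abcb4, Abcg2 and Slco1a1 among the membrane roles, Abcb10 in mitochondria, and Abcc9, Slc22a23, Slc22a28 and Slc22a30 among the rest. Ppara, the fatty acid receptor named in the title of the study, had the same pattern, at 23.03, 40.03 and 43.43 FPKM in the knockout and 19.47, 40.36 and 38.28 FPKM in the wild type. The labels give the number and no shared day or batch, so the cause of the pattern was not tested.

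The mitochondrial and lysosomal ABC genes had differences close to 0. Of 5 members 4 were tested, with a median difference of -0.017 and a range from -0.072 to 0.024. Abcb6, a porphyrin transporter, had a mean of 19.9 ± 2.89 FPKM in the knockout and 19.98 ± 1.90 FPKM in the wild type. Abcb8 had 8.63 ± 0.606 and 8.63 ± 2.30 FPKM, and Abcb10, which works beside heme synthesis in the mitochondrial inner membrane, had 4.76 ± 1.18 and 4.98 ± 0.531 FPKM. Abcb9, a peptide transporter of lysosomes, was below the filter and not tested. Its values were 0.35, 0.29 and 0.42 FPKM in the knockout and 0.52, 0.77 and 0.73 FPKM in the wild type. Its genotypes did not overlap, with the knockout lower, which held for 1 of the 23 members below the filter (4.35%) beside 7.56% of all genes below it.

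Among the 25 remaining members 8 were tested, with 4 positive and 4 negative differences and a median of 0.0024. Slc22a30, an organic anion transporter family member, had 31.91, 42.4 and 44.44 FPKM in the knockout and 39.62, 53.86 and 54.45 FPKM in the wild type. In each numbered pair the knockout library was the lower, and replicate 1 was lowest in both genotypes. The log2 difference was -0.31 (SE 0.17, unadjusted p = 0.098, adjusted p = 0.60 by limma), and without replicate 1 of both genotypes it was -0.31 (adjusted p = 0.035 by limma). Slc22a28 shared 67.0% of its 31-base words with Slc22a30, and its own level of 3.99 to 8.08 FPKM may include fragments of that gene. Slc22a18 had 38.36, 38.56 and 39.34 FPKM in the knockout and 56.08, 39.04 and 38.13 FPKM in the wild type, with wild type replicate 1 alone at the top (log2 difference -0.17, adjusted p = 0.795 by limma).

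Slc22a4, the ergothioneine transporter, lies near Slc22a5 on chromosome 11, with Slc22a21 between them. It had 1.21, 1.26 and 1.94 FPKM in the knockout and 1.41, 0.97 and 0.96 FPKM in the wild type (log2 difference 0.22, adjusted p = 0.76 by limma). Slco2a1, the prostaglandin transporter, had 1.81, 1.96 and 2.63 FPKM in the knockout and 1.68, 1.54 and 2.43 FPKM in the wild type (log2 difference 0.12, adjusted p = 0.91 by limma). Slc22a23 had 8.78, 12.83 and 14.73 FPKM in the knockout and 10.66, 14.83 and 13.79 FPKM in the wild type (log2 difference -0.12, adjusted p = 0.93 by limma). All 3 genes had overlapping genotypes. Slc22a15 ranged from 1.19 to 2.18 FPKM and Abcc9, a subunit of ATP-sensitive potassium channels, from 1.58 to 2.87 FPKM. The 17 members of this group below the filter stayed at or under 1.44 FPKM. Among all 23 members below the filter, 9 stayed under 0.2 FPKM in every library and 11 were listed at 0 in at least 1 library.

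**Figure D4:**
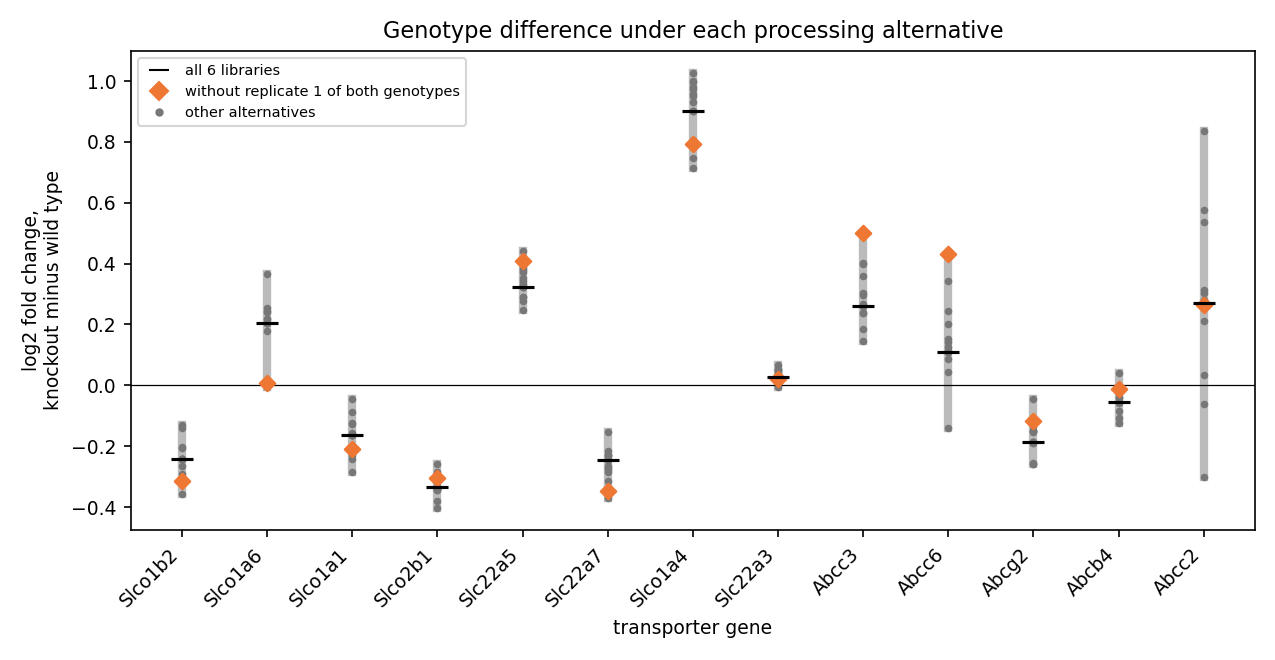
Log2 difference (knockout minus wild type) of 13 tested members with a membrane role under each alternative, with a black bar for the reported fit of all 6 libraries, a diamond for the fit without replicate 1 of both genotypes, dots for the other alternatives and a grey band for their range. Slco1a4 stays between 0.72 and 1.03 across left-out libraries, while Abcc2 runs from -0.30 to 0.84.

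Of 13 tested genes of other hepatobiliary transport, none passed by limma, 6 were positive and 7 negative, and the median was -0.078. Their summed level spanned 598.9 to 640.8 FPKM in the knockout and 708.6 to 720.7 FPKM in the wild type, ranges that did not overlap, and most of the gap lay in Slc10a1. Slc10a1, the sodium-dependent uptake carrier of conjugated bile acids, had 298.7 ± 14.0 FPKM in the knockout and 384 ± 19.1 FPKM in the wild type (log2 difference -0.36, adjusted p = 0.27 by limma). None of 8 tested genes for membrane scaffold proteins passed, with 2 positive, 6 negative and a median of -0.19. None of 20 transcription factors that control transporters passed, with 10 positive, 10 negative and a median of 0.045. CAR (Nr1i3) had 103 ± 10.5 FPKM in the knockout and 84.9 ± 10.8 FPKM in the wild type (adjusted p = 0.54 by limma), and PXR (Nr1i2) had 27.9 ± 1.48 and 22.1 ± 0.513 FPKM without overlap (adjusted p = 0.36 by limma).

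Among 19 tested targets of CAR and PXR 2 rose by limma and none fell, beside 0.762% of all genes called. Of these targets 9 were positive and 10 negative, with a median of -0.017. Cyp2b10, a P450 widely used as a marker of CAR activity, had 26.22, 20.67 and 18.51 FPKM in the knockout and 5.24, 9.03 and 8.45 FPKM in the wild type (log2 difference 1.43, SE 0.20, adjusted p = 0.011 by limma). Gadd45b, a stress-inducible gene, had 4.73 ± 1.33 FPKM in the knockout and 1.57 ± 0.298 FPKM in the wild type (adjusted p = 0.037 by limma). Slco1a4 and Cyp2b10 both had their highest value in knockout replicate 1, as did Slco1a6 and Alb. In the wild type, replicate 1 was the highest for Slco1a4 (6.90 FPKM) and the lowest for Cyp2b10 (5.24 FPKM). A link between Slco1a4 and Cyp2b10 was not tested. None of 14 tested NRF2 targets passed (2 positive, 12 negative, median -0.17), and none of 3 tested AhR targets passed (median -0.20). Of 16 tested genes on a list of male-biased liver genes 3 rose and 3 fell, beside 0.762% of all genes called, with a median of -0.15. All gene lists used here were drawn up with earlier results of these data known, so their counts are descriptions. The male-biased genes that rose were Elovl3, C8a and Nat8f5, and those that fell were Hsd3b5, Nudt7 and C8b. Of 18 female-biased genes 14 were in the table, 10 were under 1 FPKM in all libraries, and only 3 were tested. Of these 3, 2 were positive and 1 negative, Acot3 rose, and the median was 0.75.

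Among red blood cell markers 3 were tested, with 1 positive and 2 negative differences, and 2 of them did not pass. Alas2, the erythroid enzyme of heme synthesis, fell from 47.9 ± 3.30 FPKM in the wild type to 9.43 ± 0.859 FPKM in the knockout (adjusted p = 2.0e-05 by limma). The summed level of that list spanned 196.3 to 393.2 FPKM in the knockout and 231.95 to 535.8 FPKM in the wild type. Cholangiocyte markers summed to 24.2 to 27.1 FPKM in the knockout and 29.6 to 37.5 FPKM in the wild type. Most of these sums was Spp1, at 18.3 ± 1.35 FPKM in the knockout and 27.0 ± 4.44 FPKM in the wild type (adjusted p = 0.19 by limma). Slc4a2, the other marker tested, had a log2 difference of 0.073 (adjusted p = 0.94 by limma). The defining genes Cftr, Epcam, Krt19, Krt7 and Sox9 were under 1 FPKM in all libraries. Stellate cell markers summed to 13.7 to 14.8 FPKM and 12.75 to 14.8 FPKM, and none of 6 tested passed. None of 10 tested periportal hepatocyte markers passed, with 8 positive, 2 negative and a median of 0.34. Of 10 pericentral markers 6 were positive and 4 negative, with a median of 0.064. Cyp2e1, the gene that defines the genotypes, alone fell, and the other 9 did not pass. The part of these cell types and zones in the transporter values was not tested.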

How the data were processed

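Liver RNA of 6 libraries, 3 per genotype, was sequenced from TruSeq libraries, per the labels' protocols. HISAT and mm10 are listed in the submitters' processing notes. The sources used here give neither the program and annotation behind the values nor any use of strand, and genes that overlap could not be separated. The authors deposited FPKM values, per the file headers, and no counts.

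Genes at 1 FPKM or more in 3 or more libraries were tested on log2(FPKM + 1) with limma 3.58.1 (lmFit, eBayes with trend, R 4.3.3), and p-values were adjusted over all 9968 by Benjamini-Hochberg. Fold changes on this scale understate changes of low genes. The fit was tested on simulated data drawn independently for each library. That test does not cover libraries that deviate together. Depth was estimated from the steps between low FPKM values. The depth, and the number of bases taken off each length, were chosen to give the best match to whole steps. At that choice 65.2% to 73.0% of the values per library lay within 0.15 of a whole step. The 30% by spacing alone holds for a depth fixed beforehand, so setting it beside these shares overstates the match. At the estimated depth, low members rest on few fragments. Ratios of members were compared by exact permutation tests in scipy 1.17.1. Gene positions and the 250 bases before start sites came from RefSeq (GRCm38).

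Deviations of same-numbered libraries correlated at 0.30, 0.198 and 0.157 for replicates 1, 2 and 3, and those of knockout replicate 3 and wild type replicate 2 at 0.212. The reported fit and the ratio tests are unpaired, and the fit with a replicate block is given as an alternative. Per-library values were given for tested members of the membrane roles, for remaining members by smallest p or highest level, and otherwise ranges. Values of 2 tested members are not reported here, though they stay in counts, sums and medians. The members and lists were chosen with earlier results of these data known. The alternatives were other pseudocounts, filters, scalings and variance models, library weights, a replicate block and left-out libraries.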

Additional observations from a re-analysis of the deposited data

How the results depend on the processing

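For 24 tested members there were 384 values under 16 alternatives. Of these 344 kept their direction and side of the threshold, 8 newly passed it and 32 changed sign in 13 members. No call could be lost, since the reported fit called no member. The replicate block called no member, as in the reported fit, with Slco1a4 at an adjusted p of 0.0506 by limma. Library weights called 4 members, and leaving out replicate 1 of both genotypes called 5, and the cause was not tested. Under those same settings the mitochondrial and lysosomal median was 0.072 and 0.085. Log2 differences that changed sign with the weights and without replicate 1 of both genotypes were 0.034 and 0.025 for Abcb10, 0.11 and 0.15 for Abcb6, and -0.057 and -0.046 for Abcc9. Without replicate 1 of both genotypes Slc22a18 was at 0.013 and the log2 ratio of Abcc3 to Abcc2 at 0.24. Median-of-ratios scaling and scaling without the 10 most abundant genes gave 0.020 and 0.025 for Abcb6 and 0.012 and 0.019 for Slc22a28. These scalings moved the median of all genes by 0.028 and 0.032, about as far as they moved both members.

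Leaving out 1 library at a time gave ranges that cross 0 for 13 members. They were -0.20 to 0.098 for Abcb10, -0.090 to 0.11 for Abcb6, -0.15 to 0.14 for Abcc9, and -0.12 to 0.040 for Abcb4. They were -0.11 to 0.21 for Abcb8, -0.30 to 0.84 for Abcc2, -0.14 to 0.34 for Abcc6, and -0.27 to 0.0061 for Slc22a18. They were -0.28 to 0.17 for Slc22a28, -0.097 to 0.17 for Slc22a15, -0.27 to 0.078 for Slc22a23, -0.0043 to 0.052 for Slc22a3, and -0.0049 to 0.37 for Slco1a6. Ranges on 1 side of 0 were -0.26 to -0.044 for Abcg2, -0.29 to -0.045 for Slco1a1, -0.32 to -0.13 for Slco1b2, -0.40 to -0.26 for Slco2b1, -0.31 to -0.15 for Slc22a7, and -0.46 to -0.17 for Slc22a30. They were 0.15 to 0.40 for Abcc3, 0.25 to 0.44 for Slc22a5, 0.087 to 0.32 for Slc22a4, and 0.013 to 0.26 for Slco2a1. Role medians ranged from -0.0049 to 0.052 for uptake, from -0.071 to 0.045 for mitochondrial and lysosomal genes and from -0.10 to 0.10 for the remaining members. Log2 ratios ranged from -0.46 to 0.69 for Abcc3 to Abcc2, -1.01 to 0.075 for Abcc4 to Abcc2, and -0.20 to 0.029 for Slco1b2 to Slco1a1. FPKM without counts limits what can be said of members near or below 1 FPKM, which include Abcb1a, Abcb1b and Abcc4.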
